A study of Mus musculus with 10 samples.

Results

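The 44 genes described here encode proteins that drive cell division: mitotic cyclins and kinases, the spindle checkpoint, the kinetochore, spindle motors and cytokinesis factors. They were taken by gene symbol from a list of names, and no cut-off on measured values entered the rule. All 44 were among the 21934 symbols of both deposited tables. The study measured ribosome-protected mRNA fragments (footprints) and poly(A)-selected input RNA in mouse cells labelled as macrophages, to ask how Wdr4 affects translation. WDR4 is the partner of METTL1 in the enzyme that places 7-methylguanosine on tRNAs. The first table holds immortalized bone marrow-derived macrophage (iBMDM) lines, which derive from monoclonal lines: sgWdr4-1 cells and sgWdr4-2 cells received lentiviral guide RNAs against Wdr4 and puromycin selection, and WT cells served as their control. The labels do not say whether WT cells carried a control guide. The second table holds F4/80+ tumour-associated macrophages (TAMs) sorted from Hepa1-6 hepatoma tumours grown in the liver of Wdr4 cKO mice, labelled as knocked out in myeloid cells only, or of Wdr4 ff mice, their controls. The Cre driver, the age of the mice and any pooling of animals are not given in the labels. Each of the 5 conditions had 1 footprint and 1 input library, so 10 libraries in all, and no condition was replicated. Nothing in the labels says that the 3 lines came from separate cultures.

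Mitosis begins when cyclin B bound to CDK1 becomes active, after CDC25 phosphatases remove the inhibitory phosphates that WEE1-type kinases place on CDK1. Chromosomes then attach to spindle microtubules through the kinetochore, a protein assembly built on CENP-A chromatin. Its core is the KMN network of KNL1, the MIS12 complex and the NDC80 complex, in which the NDC80 complex binds the microtubule. Unattached kinetochores send the spindle checkpoint signal, which holds back CDC20 and the anaphase-promoting complex (APC/C) until every chromosome is attached. The APC/C then marks securin and cyclin B for destruction, separase cuts cohesin, and the cell divides at a furrow organised by the central spindle. Most of these genes are transcribed in G2 and M phase, so their RNA in a culture or tissue follows how many cells are dividing. In bulk libraries such as these, fewer dividing cells and less RNA per dividing cell cannot be told apart.

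Checks of the labels bear on every comparison. Values are TPM, a share of the library's transcripts that allows for transcript length. Which length was used for footprints and for input is not given, so comparisons of footprints over input between genes are uncertain. Wdr4 itself had footprints of 24.3 TPM in sgWdr4-1 cells, 26.9 in sgWdr4-2 cells and 13.3 in WT cells, and input of 31.3 TPM in sgWdr4-1 cells, 44.5 in sgWdr4-2 cells and 44.6 in WT cells. In TAMs it had footprints of 17.7 TPM in cKO TAMs and 8.51 in ff TAMs, and input of 20.9 TPM in cKO TAMs and 39.8 in ff TAMs. Footprints on Wdr4 were thus higher in each library labelled as targeted than in its control, while its input was lower in sgWdr4-1 cells and cKO TAMs. Gene totals do not show whether a guide or Cre changed the coding sequence. Of 20 macrophage markers, 16 stayed under 1 TPM in all input libraries, and Adgre1, which encodes F4/80, was at 0 in all 10 libraries. Cd14 and Lgals3 of that list reached 5 TPM in every input library. Of 14 fibroblast and stellate cell markers, 8 reached 5 TPM in every input library and 6 stayed under 1 TPM in all of them. All 12 lymphocyte and neutrophil markers and 10 of 13 hepatocyte and hepatoma markers were under 1 TPM there, while Apoa1 and Apoa2 reached 5 TPM. The label "macrophages" was therefore not borne out by most of these markers in either table, and the conditions are named below by their labels only. Transcripts encoded in mitochondria took 0.781% of footprints in sgWdr4-1 cells, 10.3% in sgWdr4-2 cells and 14.6% in WT cells, and 13.6% in cKO TAMs and 9.94% in ff TAMs. The sgWdr4-1 footprint library stood apart in this respect.

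Promoters of G2/M genes are known for a short element called the cell cycle genes homology region (CHR), bound by MuvB-containing complexes, and for CCAAT boxes, bound by NF-Y. Windows from 250 bases before to 50 bases after the annotated start (RefSeq, GRCm38.p6) were matched for 36 of the 44 genes, and 3 of these had 2 windows. A gene was counted when any of its windows held the letters. TTTGAA, searched on both strands, was in 25 of the 36 genes (69.4%), against 20.2% of 27025 genes with a window. TTTAAA, a palindrome, was in 9 (25%), against 14.9% of all genes, and CCAAT, on both strands, was in 26 (72.2%), against 41.1%. At least 1 of the 2 hexamers together with CCAAT in the same window occurred in 23 genes (63.9%), against 12.2% of all genes. A match is a description of the letters and not a site of binding. The 100 bases before the start are shown for 6 genes in which these letters lie close to the start, and for Mis12, the gene past 2-fold in all 3 comparisons. Capitals mark TTTGAA, which reads TTCAAA where it lies on the other strand. They also mark TTTAAA, and CCAAT, which reads ATTGG where it lies on the other strand. All are printed 5′ to 3′ on the strand of the gene, at chr10:69352913-69353012 (-) for Cdk1, chr13:100786487-100786586 (-) for Ccnb1, chr4:118437344-118437443 (-) for Cdc20, chr2:164769829-164769928 (+) for Ube2c, chr15:102296193-102296292 (+) for Espl1, chr19:37376282-37376381 (+) for Kif11 and chr11:71019511-71019610 (+) for Mis12.
Cdk1: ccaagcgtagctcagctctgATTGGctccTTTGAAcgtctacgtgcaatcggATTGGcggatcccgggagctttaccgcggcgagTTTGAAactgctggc
Ccnb1: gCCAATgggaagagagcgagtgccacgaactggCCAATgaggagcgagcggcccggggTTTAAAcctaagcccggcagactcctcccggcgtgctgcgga
Cdc20: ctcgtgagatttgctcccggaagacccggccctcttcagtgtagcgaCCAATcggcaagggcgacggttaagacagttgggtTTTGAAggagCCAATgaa
Ube2c: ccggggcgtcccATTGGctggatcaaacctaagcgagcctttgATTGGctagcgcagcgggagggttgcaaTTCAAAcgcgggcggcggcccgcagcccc
Espl1: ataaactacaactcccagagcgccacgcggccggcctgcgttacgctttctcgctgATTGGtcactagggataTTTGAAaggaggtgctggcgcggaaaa
Kif11: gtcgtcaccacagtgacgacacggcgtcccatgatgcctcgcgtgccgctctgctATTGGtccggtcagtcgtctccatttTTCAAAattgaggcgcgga
Mis12: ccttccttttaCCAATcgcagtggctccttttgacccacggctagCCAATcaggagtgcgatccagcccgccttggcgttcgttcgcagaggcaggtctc
Cdk1 held TTTGAA 71 and 15 bases before the start, Cdc20 at 18, Ube2c at 29, Espl1 at 27 and Kif11 at 19, while Ccnb1 held TTTAAA at 42. Mis12 held CCAAT at 89 and 55 bases before the start and neither hexamer in the whole window.

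All 44 genes were expressed in every input library. Summed over the 44 genes, input was 5560 TPM in sgWdr4-1 cells, 5274 in sgWdr4-2 cells and 5253 in WT cells, and 5154 TPM in cKO TAMs and 5359 in ff TAMs. The sums differed little between conditions. Summed footprints were 4663 TPM in sgWdr4-1 cells, 2961 in sgWdr4-2 cells and 2771 in WT cells, and 2431 TPM in cKO TAMs and 2592 in ff TAMs. The sgWdr4-1 library held the largest share of mitotic footprints of the 5. Its footprints were the highest of the 3 lines for 33 of the 44 genes, against 5 genes for sgWdr4-2 and 6 for WT. That count was not made over all genes. Against WT cells alone, footprints were higher in sgWdr4-1 cells for 35 of the 44 genes. The share was 53.6% over the 7536 genes that passed the filter given below. The median gene of the set had 63.2 footprint TPM in sgWdr4-1 cells, 30.7 in sgWdr4-2 cells and 29.2 in WT cells, and 17.7 TPM in cKO TAMs and 31.4 in ff TAMs, so the median differed more between the TAM genotypes than the sum did. Cdk1 had the highest value in every library.

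**Figure D1:**
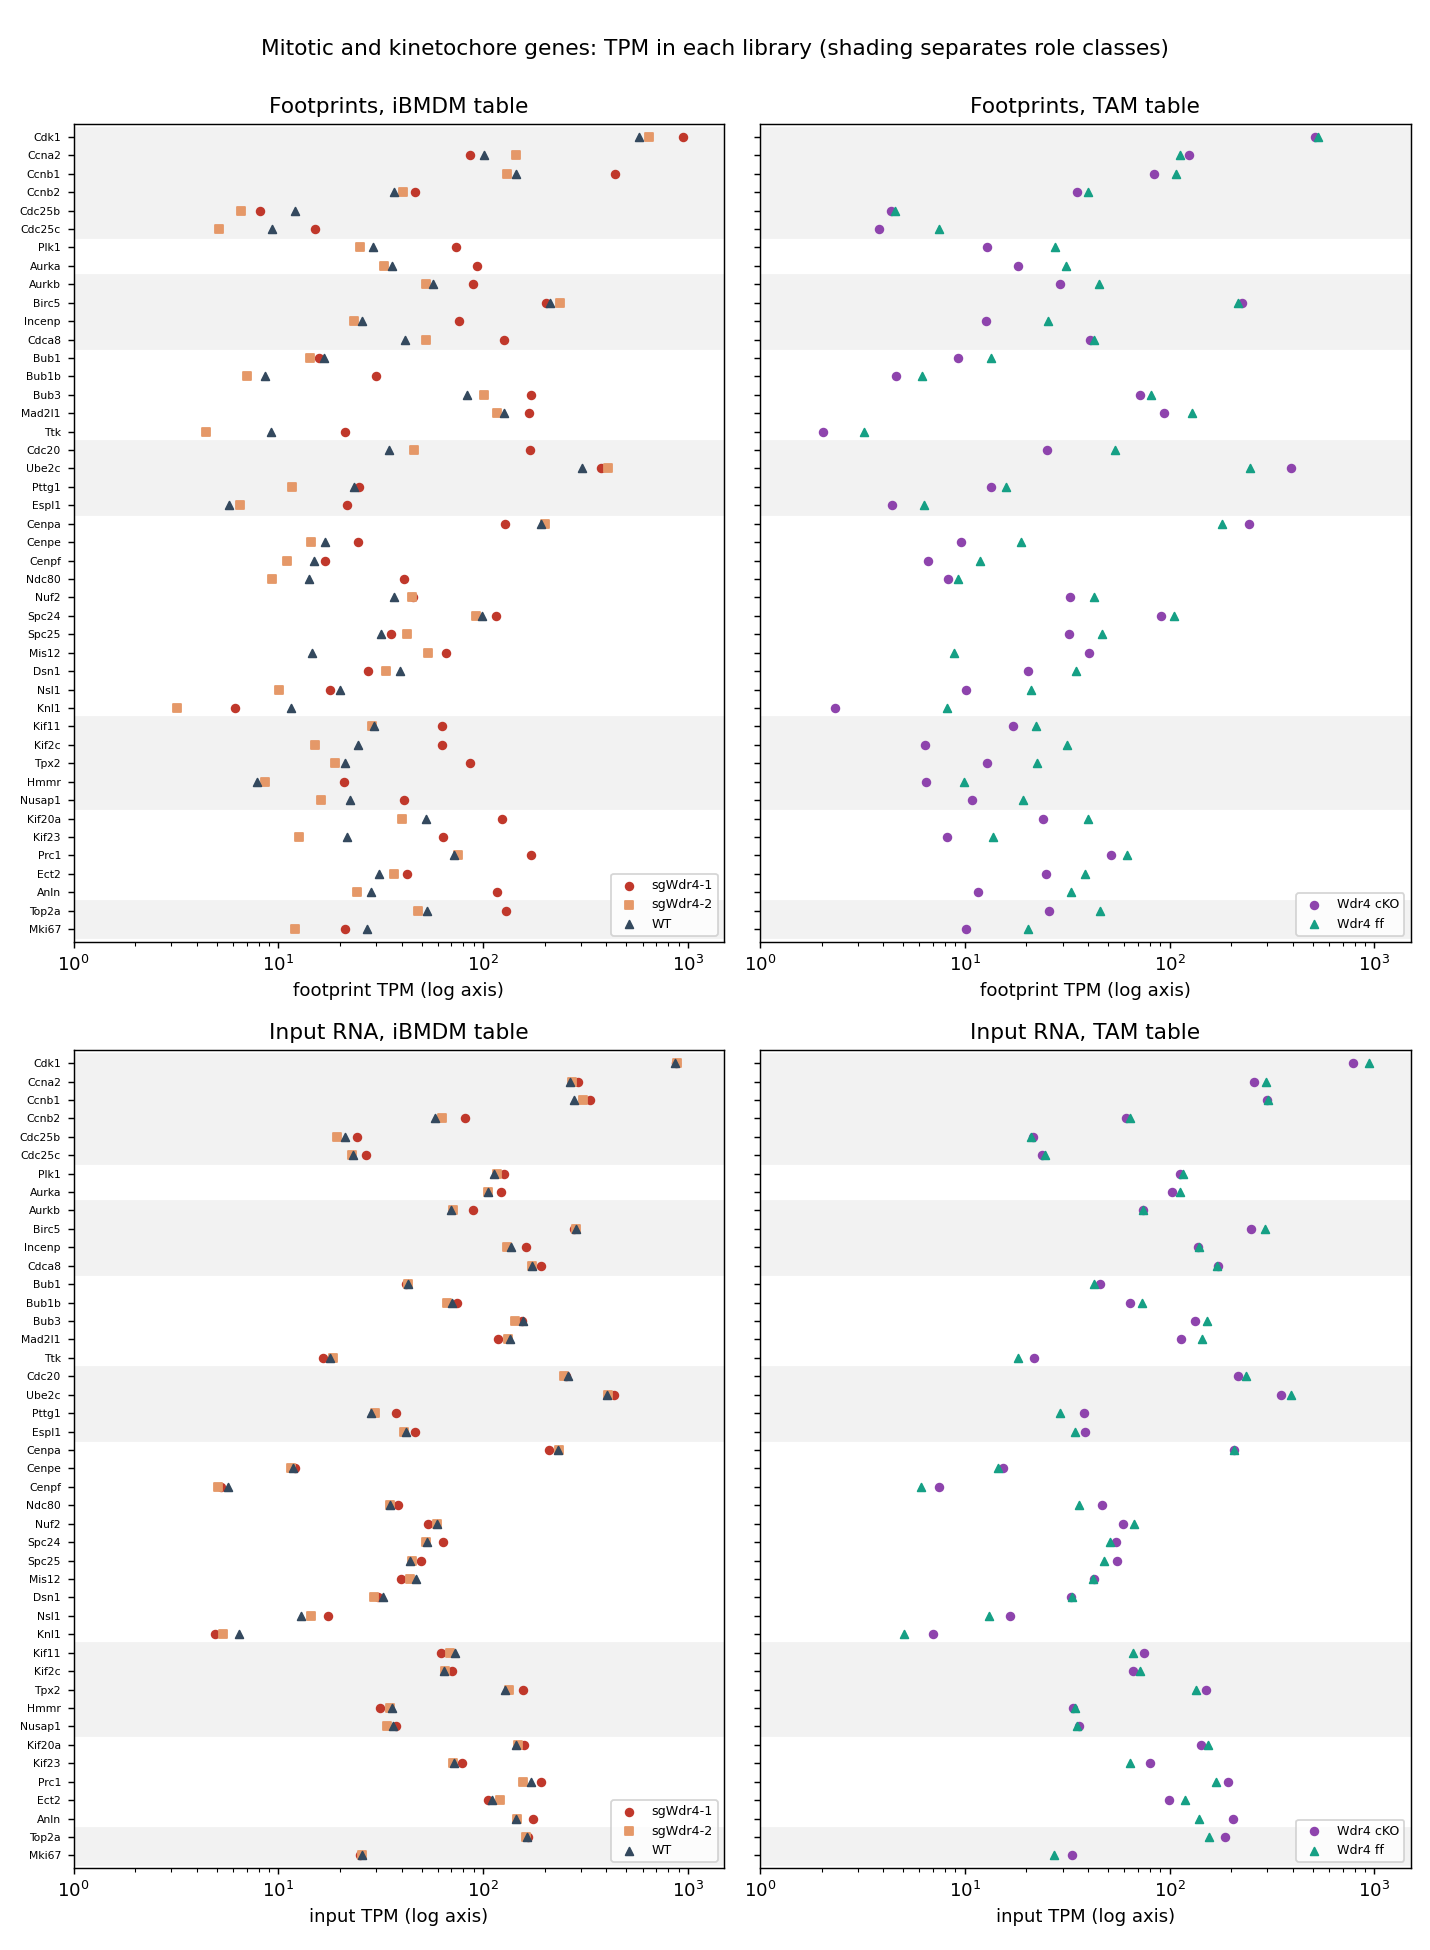
Footprint and input TPM of each of the 44 genes, plotted by gene in order of role on a log axis, with 1 point per library. Input points of a gene lie close together, while sgWdr4-1 footprints are the highest of the 3 lines for 33 genes, a count not made over all genes. The median footprint value is 17.7 TPM in cKO TAMs against 31.4 TPM in ff TAMs.

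Input RNA of the 44 genes differed little between labels. No gene was 2-fold apart in any comparison, against 0.318% of all genes higher and 0.0796% lower in sgWdr4-1 cells, 0.0265% higher and 0.0398% lower in sgWdr4-2 cells, and 1.42% higher and 0.169% lower in cKO TAMs. On a log2 scale with 1 TPM added, where low genes appear less changed than they are, input differences ranged from -0.33 to 0.48 in sgWdr4-1 cells, from -0.22 to 0.15 in sgWdr4-2 cells and from -0.34 to 0.55 in cKO TAMs. Differences between labels therefore lay in footprints and in translation efficiency, which is log2(footprint TPM + 1) minus log2(input TPM + 1). Genes entered a count when their mean input and mean footprints were each at least 5 TPM in a table. All 44 did so among the lines (7536 genes) and 42 did so among the TAMs (7101 genes), where Cdc25b and Ttk, with few footprints, did not.

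Translation efficiency went different ways under the 2 guides and in cKO TAMs. In sgWdr4-1 cells 21 of the 44 genes (47.7%) were at least 2-fold higher than in WT cells and none was 2-fold lower, against 14.8% and 13.7% of all genes. Their median change was 0.75, against 0.01 for all genes. In sgWdr4-2 cells 1 gene was 2-fold higher and 4 were lower, against 3.53% and 4.87% of all genes, with a median of -0.13, against -0.05 for all genes. In cKO TAMs 1 of 42 genes was 2-fold higher and 7 (16.7%) were lower than in ff TAMs, against 4.03% and 16% of all genes, so the share of lower genes was near that of all genes. The median in cKO TAMs was -0.59, against -0.25 for all genes, and 35 of the 42 genes lay below 0, against 64.9% of all genes. Relative to the median gene of the table, 30 of the 42 were lower in cKO TAMs. Footprints alone gave the same picture, with 21 genes 2-fold higher and none lower in sgWdr4-1 cells, against 16.1% and 10.3% of all genes, 1 higher and 2 lower in sgWdr4-2 cells, against 3.03% and 4.63%, and 1 higher and 5 lower in cKO TAMs, against 2.73% and 8.15%. Under both guides 1 gene was 2-fold higher and none lower in translation efficiency, against 0.902% and 2.04% of all genes, and likewise in footprints, against 0.743% and 1.43%. The cKO median was -0.31 and its count of 7 lower genes was 4 when libraries were rescaled to the same median. The count of 7 was also 4 with a pseudocount of 5, and 10 with a pseudocount of 0.1. The count of 4 in sgWdr4-2 cells was 0 with a pseudocount of 5 and 1 after rescaling.

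**Figure D2:**
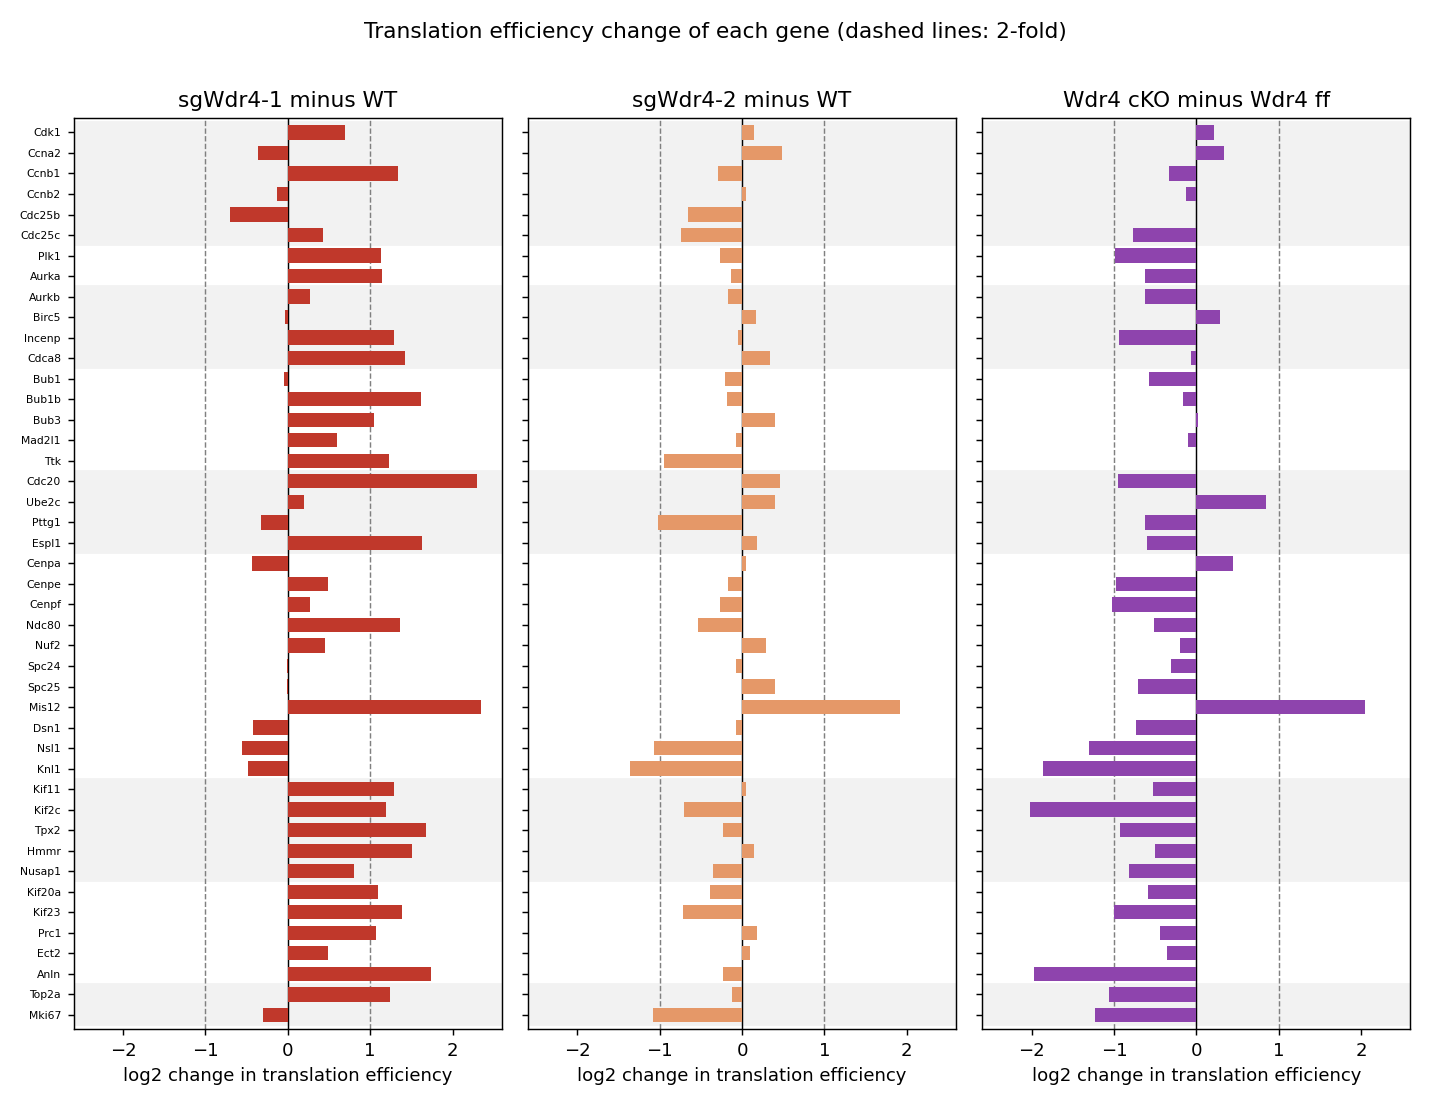
Change in translation efficiency of each gene on the log2 scale, in sgWdr4-1 cells minus WT cells, sgWdr4-2 cells minus WT cells, and cKO TAMs minus ff TAMs, with 1 bar per gene in order of role and dashed lines at 2-fold. In sgWdr4-1 cells 21 bars pass the upper line, in sgWdr4-2 cells 1 passes the upper and 4 the lower line, and in cKO TAMs 1 passes the upper and 7 the lower line; Cdc25b and Ttk have no bar there.

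The sgWdr4-1 differences were those of a single footprint library. In that library the fibroblast and stellate markers also summed to more footprints, at 11430 TPM in sgWdr4-1 cells, 5443 in sgWdr4-2 cells and 6615 in WT cells, over inputs of 7632 TPM in sgWdr4-1 cells, 6669.5 in sgWdr4-2 cells and 6549 in WT cells. The 20 macrophage markers summed to 698 footprint TPM in sgWdr4-1 cells, 470.1 in sgWdr4-2 cells and 351 in WT cells. Of these markers, 18 were under 5 TPM in every library, so the sum is mainly that of Cd14 and Lgals3 and does not describe the list. In TAMs the fibroblast and stellate markers summed to 4558 footprint TPM in cKO TAMs and 6324 in ff TAMs, over inputs of 8962 TPM in cKO TAMs and 6626 in ff TAMs. The part of these markers in the results was not tested. With genes encoded in mitochondria, ribosomal protein genes and histone genes left out of the totals, the number 2-fold higher in translation efficiency in sgWdr4-1 cells was 18 of 44. A comparison of the 2 targeted lines with WT across all genes (limma with Benjamini-Hochberg adjustment, two-sided) called none of the 44 genes in translation efficiency, footprints or input. It called 0.0398% of all genes higher and 0.0265% lower in translation efficiency, 0.0265% higher and 0.0133% lower in footprints, and 0% either way in input. At an unadjusted p under 0.05, 1 of the 44 genes, Mis12, was higher in translation efficiency and in footprints, and none was lower or differed in input. Only 1 residual degree of freedom was available, which came from how far the guides lay apart, and the WT line was taken to vary as much. The p-values therefore measure the spread between these libraries alone, which may be technical.

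Mis12, the subunit after which the MIS12 complex of the kinetochore is named, was the only one of the 42 genes measured in both tables with at least 2-fold more footprints in all 3 targeted libraries, against 8 of 6927 genes overall. Its footprints were 65.9 TPM in sgWdr4-1 cells, 53.6 in sgWdr4-2 cells and 14.5 in WT cells, and 40.5 TPM in cKO TAMs and 8.88 in ff TAMs. Its input was 39.7 TPM in sgWdr4-1 cells, 43.7 in sgWdr4-2 cells and 46.9 in WT cells, and 42.7 TPM in cKO TAMs and 42.1 in ff TAMs. Footprints were high in the 3 targeted libraries and low in both controls, while input was nearly level. Footprints per input were 1.66 in sgWdr4-1 cells, 1.23 in sgWdr4-2 cells and 0.310 in WT cells, and 0.9495 in cKO TAMs and 0.211 in ff TAMs. Translation efficiency was higher by 2.34 in sgWdr4-1 cells, 1.91 in sgWdr4-2 cells and 2.05 in cKO TAMs, on the log2 scale, and 17 of 6927 genes (0.245%) were 2-fold higher in all 3. In limma the difference of the targeted lines from WT was 2.13 (SE 0.82, adjusted p = 1.00, unadjusted p = 0.00927) in translation efficiency and 1.96 (SE 0.83, adjusted p = 1.00, unadjusted p = 0.0182) in footprints, so it did not pass the adjusted threshold.

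Mis12 overlaps another protein-coding gene, Derl2, in the RefSeq annotation. Derl2 encodes derlin 2, a membrane protein of endoplasmic reticulum-associated degradation. Its values lay on the other side, with footprints of 50.8 TPM in sgWdr4-1 cells, 42.1 in sgWdr4-2 cells and 116 in WT cells, and 71.8 TPM in cKO TAMs and 95.1 in ff TAMs. Its input was 52.4 TPM in sgWdr4-1 cells, 43.0 in sgWdr4-2 cells and 39.3 in WT cells, and 49.3 TPM in cKO TAMs and 38.2 in ff TAMs. Its translation efficiency differed by -1.58 in sgWdr4-1 cells, -1.57 in sgWdr4-2 cells and -0.76 in cKO TAMs. The footprints of both genes together were 117 TPM in sgWdr4-1 cells, 95.6 in sgWdr4-2 cells and 130.3 in WT cells, and 112 TPM in cKO TAMs and 104 in ff TAMs, so the sum varied less than either gene. How reads shared by overlapping genes were assigned is not given in the sources used here, and the part of such reads in the Mis12 values was not tested, so these values are uncertain. Of the 44 genes, 9 overlap a protein-coding neighbour in that annotation: Ccna2, Aurka, Cdc20, Mis12, Nsl1, Nusap1, Kif20a, Prc1 and Anln. How shared reads were assigned is not known for these genes either, and values are given here for some of their neighbours only. In sgWdr4-1 and WT cells, footprints were 98.6 and 107 TPM for Elovl1 (beside Cdc20) and 47.5 and 22.3 for Cstf1 (beside Aurka). They were 1.21 and 1.52 TPM for Rccd1 (beside Prc1) and 8.79 and 3.01 for Tatdn3 (beside Nsl1). Elovl1, Rccd1 and Tatdn3 thus lay on the other side from their partners, as Derl2 did, though Elovl1, Rccd1 and Nsl1 differed little. Cstf1 was higher, as was Aurka. In TAMs Elovl1 again lay opposite to Cdc20, at 181 TPM in cKO TAMs and 140 in ff TAMs. Cstf1, Rccd1 and Tatdn3 were lower in cKO TAMs, as were their partners. The part of shared reads was not tested.

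**Figure D3:**
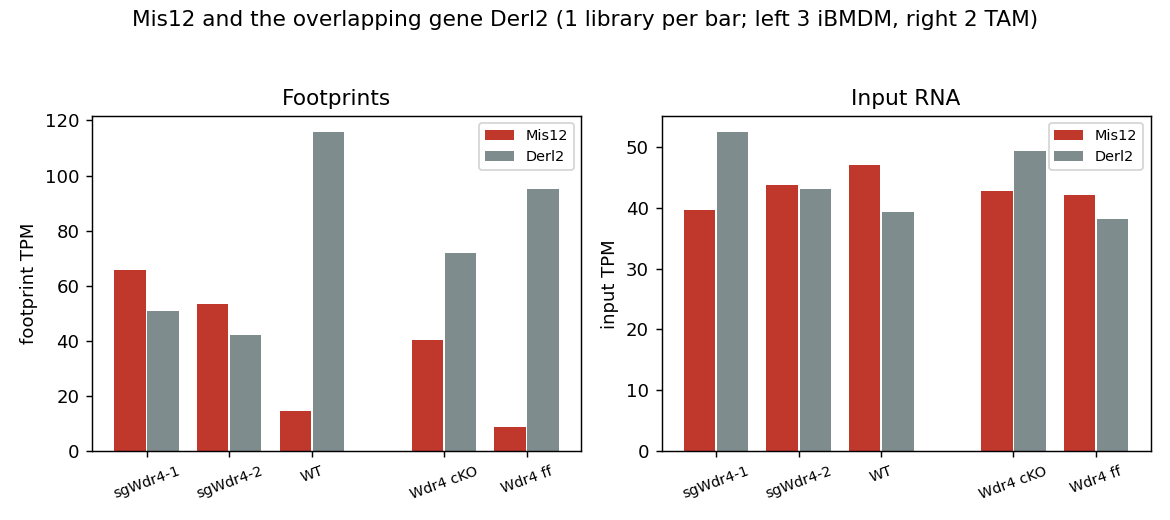
Footprint TPM (left) and input TPM (right) of Mis12 and the overlapping gene Derl2, with 1 library per bar, for the 3 iBMDM lines and the 2 TAM genotypes. Mis12 footprints are 65.9 TPM in sgWdr4-1 cells and 53.6 TPM in sgWdr4-2 cells against 14.5 TPM in WT cells, and 40.5 TPM in cKO TAMs against 8.88 TPM in ff TAMs, while Derl2 footprints are lower in each targeted library than in its control.

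Among the cyclins and CDC25 phosphatases, 1 of 6 genes was 2-fold higher in translation efficiency in sgWdr4-1 cells, against 14.8% of all genes. None passed 2-fold in sgWdr4-2 cells, against 3.53% of all genes higher and 4.87% lower. None did in cKO TAMs either, against 4.03% and 16%. Cdk1, the kinase that drives entry into mitosis, had footprints of 946 TPM in sgWdr4-1 cells, 646 in sgWdr4-2 cells and 574 in WT cells, and 514 TPM in cKO TAMs and 530.5 in ff TAMs. Its input was 878 TPM in sgWdr4-1 cells, 879.7 in sgWdr4-2 cells and 863 in WT cells, and 784 TPM in cKO TAMs and 936 in ff TAMs. Both kinds lay within 2-fold across the labels. Ccnb1, which encodes cyclin B1, was the gene past 2-fold, with footprints of 440.4 TPM in sgWdr4-1 cells, 131 in sgWdr4-2 cells and 145 in WT cells over inputs of 332 TPM in sgWdr4-1 cells, 308 in sgWdr4-2 cells and 277 in WT cells. In TAMs it had footprints of 84.2 TPM in cKO TAMs and 107 in ff TAMs, over inputs of 298 TPM in cKO TAMs and 302 in ff TAMs. Its translation efficiency differed by 1.34 in sgWdr4-1 cells, -0.29 in sgWdr4-2 cells and -0.33 in cKO TAMs, so it was high in the sgWdr4-1 library alone. Ccna2, which encodes cyclin A2 of S and G2 phase, had its lowest footprints in the line where cyclin B1 had its highest, at 85.9 TPM in sgWdr4-1 cells, 144 in sgWdr4-2 cells and 101 in WT cells. Ccna2 input was 292 TPM in sgWdr4-1 cells, 272 in sgWdr4-2 cells and 267 in WT cells. Cdc25c, a phosphatase that activates CDK1, had footprints of 3.82 TPM in cKO TAMs and 7.48 in ff TAMs, over inputs of 23.8 TPM in cKO TAMs and 24.6 in ff TAMs. Ccnb2 and Cdc25b stayed within 2-fold in translation efficiency in the comparisons they entered.

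The kinases Plk1 and Aurka were both 2-fold higher in translation efficiency in sgWdr4-1 cells, against 14.8% of all genes. Both lay below 0 in sgWdr4-2 cells, against 53.5% of all genes, and in cKO TAMs, against 64.9%. Plk1, which acts at centrosomes, kinetochores and the midzone, had footprints of 73.3 TPM in sgWdr4-1 cells, 25.0 in sgWdr4-2 cells and 29.1 in WT cells, over inputs of 127 TPM in sgWdr4-1 cells, 117 in sgWdr4-2 cells and 112 in WT cells. In TAMs Plk1 had footprints of 12.9 TPM in cKO TAMs and 27.6 in ff TAMs, over inputs of 113 TPM in cKO TAMs and 117 in ff TAMs. Its translation efficiency differed by 1.13 in sgWdr4-1 cells, -0.27 in sgWdr4-2 cells and -0.99 in cKO TAMs, and its footprints by -1.04 in cKO TAMs, which was -0.84 after rescaling to the same median. Aurka, the Aurora kinase of centrosomes and spindle poles, showed the same order, with footprints of 93.1 TPM in sgWdr4-1 cells, 32.8 in sgWdr4-2 cells and 36.0 in WT cells, and 18.2 TPM in cKO TAMs and 31.3 in ff TAMs. Aurka input was 122 TPM in sgWdr4-1 cells, 106 in sgWdr4-2 cells and 105 in WT cells, and 103 TPM in cKO TAMs and 112 in ff TAMs. Aurka changes were 1.14 in sgWdr4-1 cells, -0.14 in sgWdr4-2 cells and -0.63 in cKO TAMs.

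The chromosomal passenger complex, made of Aurora B, INCENP, survivin and borealin, corrects wrong attachments and later moves to the central spindle. Its genes split in sgWdr4-1 cells, where Incenp, the scaffold, and Cdca8, which encodes borealin, were 2-fold higher in translation efficiency and Aurkb and Birc5 were not. Of all genes, 14.8% were 2-fold higher there. Incenp had footprints of 76.3 TPM in sgWdr4-1 cells, 23.4 in sgWdr4-2 cells and 25.7 in WT cells, over inputs of 162 TPM in sgWdr4-1 cells, 130.03 in sgWdr4-2 cells and 137 in WT cells. Incenp had footprints of 12.7 TPM in cKO TAMs and 25.6 in ff TAMs, over inputs of 138 TPM in cKO TAMs and 139 in ff TAMs. Its cKO change in translation efficiency was -0.94, short of 2-fold. Cdca8 had footprints of 126 TPM in sgWdr4-1 cells, 52.7 in sgWdr4-2 cells and 41.4 in WT cells, over inputs of 192 TPM in sgWdr4-1 cells, 172 in sgWdr4-2 cells and 172 in WT cells. In TAMs its footprints were 41.1 TPM in cKO TAMs and 42.8 in ff TAMs, over inputs of 172 TPM in cKO TAMs and 171 in ff TAMs, so the genotypes lay close together. Birc5, which encodes survivin and had the highest input of the 4, hardly varied in footprints, at 202 TPM in sgWdr4-1 cells, 237 in sgWdr4-2 cells and 212 in WT cells, and 225 TPM in cKO TAMs and 216 in ff TAMs. Birc5 input was 277 TPM in sgWdr4-1 cells, 283 in sgWdr4-2 cells and 284 in WT cells, and 248 TPM in cKO TAMs and 292 in ff TAMs. Its changes in translation efficiency were -0.03 in sgWdr4-1 cells, 0.17 in sgWdr4-2 cells and 0.29 in cKO TAMs.

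Of the 5 spindle checkpoint genes, Bub1b, Ttk and Bub3 were 2-fold higher in translation efficiency in sgWdr4-1 cells, against 14.8% of all genes. None passed 2-fold in sgWdr4-2 cells, against 3.53% of all genes higher and 4.87% lower. Of the 4 measured in cKO TAMs none did either, against 4.03% and 16%. Bub1b, which encodes BUBR1 of the mitotic checkpoint complex, had footprints of 30.0 TPM in sgWdr4-1 cells, 6.99 in sgWdr4-2 cells and 8.62 in WT cells, over inputs of 74.2 TPM in sgWdr4-1 cells, 66.5 in sgWdr4-2 cells and 70.7 in WT cells. In TAMs Bub1b had footprints of 4.62 TPM in cKO TAMs and 6.15 in ff TAMs, over inputs of 64.3 TPM in cKO TAMs and 73.3 in ff TAMs. It carried few footprints for its RNA in 4 of the 5 conditions. Bub3, the partner of BUB1 and BUBR1, had footprints of 171 TPM in sgWdr4-1 cells, 101 in sgWdr4-2 cells and 83.4 in WT cells, and 71.8 TPM in cKO TAMs and 80.9 in ff TAMs. Bub3 input was 154 TPM in sgWdr4-1 cells, 144 in sgWdr4-2 cells and 157 in WT cells, and 134 TPM in cKO TAMs and 153 in ff TAMs. Bub3 changes were 1.05 in sgWdr4-1 cells, 0.40 in sgWdr4-2 cells and 0.02 in cKO TAMs, and the first was 0.93 with genes encoded in mitochondria, ribosomal protein genes and histone genes left out. Bub1, a kinase of the outer kinetochore, had level footprints of 15.8 TPM in sgWdr4-1 cells, 14.3 in sgWdr4-2 cells and 16.7 in WT cells, over inputs of 41.8 TPM in sgWdr4-1 cells, 42.8 in sgWdr4-2 cells and 42.8 in WT cells. Bub1 had footprints of 9.29 TPM in cKO TAMs and 13.4 in ff TAMs, over inputs of 45.5 TPM in cKO TAMs and 42.8 in ff TAMs. Ttk, which encodes the MPS1 kinase, fell short of the footprint filter in TAMs, with 2.04 TPM in cKO TAMs and 3.20 in ff TAMs. Mad2l1, which encodes MAD2, stayed within 2-fold in each comparison.

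Genes of the APC/C pathway and of sister separation differed among themselves. Cdc20, the APC/C activator that the checkpoint holds back, had the largest footprint change of the 44 genes in sgWdr4-1 cells and the second largest in translation efficiency, with footprints of 169.8 TPM in sgWdr4-1 cells, 46.0 in sgWdr4-2 cells and 34.6 in WT cells over inputs of 253 TPM in sgWdr4-1 cells, 247 in sgWdr4-2 cells and 258 in WT cells. Cdc20 had footprints of 25.3 TPM in cKO TAMs and 54.3 in ff TAMs, over inputs of 215 TPM in cKO TAMs and 235 in ff TAMs. Its translation efficiency differed by 2.29 in sgWdr4-1 cells, 0.46 in sgWdr4-2 cells and -0.95 in cKO TAMs. Ube2c, the ubiquitin-conjugating enzyme that works with the APC/C, ran the other way in TAMs, with footprints of 392.2 TPM in cKO TAMs and 246 in ff TAMs over inputs of 348 TPM in cKO TAMs and 393 in ff TAMs. In the lines its footprints were 377 TPM in sgWdr4-1 cells, 406 in sgWdr4-2 cells and 303 in WT cells, over inputs of 434 TPM in sgWdr4-1 cells, 408 in sgWdr4-2 cells and 402 in WT cells. Its changes were 0.20 in sgWdr4-1 cells, 0.40 in sgWdr4-2 cells and 0.84 in cKO TAMs, and the cKO change passed 2-fold, at 1.14, after rescaling to the same median. Espl1, which encodes separase, had footprints of 21.7 TPM in sgWdr4-1 cells, 6.49 in sgWdr4-2 cells and 5.74 in WT cells, over inputs of 46.3 TPM in sgWdr4-1 cells, 41.2 in sgWdr4-2 cells and 42.2 in WT cells. Its TAM footprints were 4.40 TPM in cKO TAMs and 6.32 in ff TAMs, over inputs of 38.8 TPM in cKO TAMs and 34.7 in ff TAMs. Espl1 was high in the sgWdr4-1 library only. Pttg1, which encodes securin, the separase inhibitor, was 2-fold lower in sgWdr4-2 cells at -1.02, with footprints of 24.7 TPM in sgWdr4-1 cells, 11.7 in sgWdr4-2 cells and 23.5 in WT cells over inputs of 37.4 TPM in sgWdr4-1 cells, 29.5 in sgWdr4-2 cells and 28.2 in WT cells.

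The 11 centromere and outer kinetochore genes had the lowest median change of the groups in sgWdr4-1 cells, at -0.01. Mis12 and Ndc80, 2 of the 11, were 2-fold higher, against 14.8% of all genes. In cKO TAMs 3 of the 11 were 2-fold lower, Knl1, Nsl1 and Cenpf, and Mis12 was higher, against 16% and 4.03% of all genes. Their median there was -0.71, against -0.25 for all genes. Knl1, the scaffold that recruits BUB proteins, had the fewest footprints of the group, at 6.15 TPM in sgWdr4-1 cells, 3.19 in sgWdr4-2 cells and 11.5 in WT cells, and 2.33 TPM in cKO TAMs and 8.16 in ff TAMs. Its input was 4.89 TPM in sgWdr4-1 cells, 5.36 in sgWdr4-2 cells and 6.39 in WT cells, and 6.99 TPM in cKO TAMs and 5.04 in ff TAMs. Knl1 footprints in each targeted library lay below those in its control, and translation efficiency differed by -0.48 in sgWdr4-1 cells, -1.36 in sgWdr4-2 cells and -1.86 in cKO TAMs. In TAMs Knl1 met the filter of 5 TPM mean footprints only through the ff library, where it was high. Its footprints in sgWdr4-2 cells were also under 5 TPM, so these calls of Knl1 as lower are uncertain. Nsl1, a subunit of the same complex as MIS12, had footprints of 17.8 TPM in sgWdr4-1 cells, 10.1 in sgWdr4-2 cells and 19.9 in WT cells, and 10.2 TPM in cKO TAMs and 21.1 in ff TAMs. Nsl1 input was 17.4 TPM in sgWdr4-1 cells, 14.5 in sgWdr4-2 cells and 12.9 in WT cells, and 16.6 TPM in cKO TAMs and 13.1 in ff TAMs. Nsl1 translation efficiency differed by -0.55 in sgWdr4-1 cells, -1.07 in sgWdr4-2 cells and -1.30 in cKO TAMs. Thus MIS12 complex genes did not move together: Mis12 was past 2-fold higher in all 3 comparisons, Nsl1 lay below 0 in all 3, and Dsn1 differed by -0.42 in sgWdr4-1 cells, -0.07 in sgWdr4-2 cells and -0.73 in cKO TAMs. The sgWdr4-2 calls of Knl1 and Nsl1 were -0.88 and -0.84 with a pseudocount of 5, short of 2-fold.

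The other kinetochore genes differed among themselves. Ndc80, whose product binds the microtubule, had footprints of 40.9 TPM in sgWdr4-1 cells, 9.28 in sgWdr4-2 cells and 14.0 in WT cells, over inputs of 38.5 TPM in sgWdr4-1 cells, 35.0 in sgWdr4-2 cells and 35.2 in WT cells. In TAMs Ndc80 had footprints of 8.28 TPM in cKO TAMs and 9.23 in ff TAMs, over inputs of 47.0 TPM in cKO TAMs and 36.1 in ff TAMs. Its 3 partners in the NDC80 complex, Nuf2, Spc24 and Spc25, stayed within 2-fold in translation efficiency in every comparison. Spc24 had footprints of 116 TPM in sgWdr4-1 cells, 91.8 in sgWdr4-2 cells and 98.5 in WT cells, and 91.2 TPM in cKO TAMs and 106 in ff TAMs. Spc24 input was 63.6 TPM in sgWdr4-1 cells, 52.5 in sgWdr4-2 cells and 53.5 in WT cells, and 54.8 TPM in cKO TAMs and 51.3 in ff TAMs, so its footprints exceeded its input in every condition. Cenpa, the histone variant that marks centromeres, had footprints of 127 TPM in sgWdr4-1 cells, 199.97 in sgWdr4-2 cells and 192 in WT cells, and 244 TPM in cKO TAMs and 179 in ff TAMs. Cenpa input was 209 TPM in sgWdr4-1 cells, 235 in sgWdr4-2 cells and 233 in WT cells, and 205 TPM in cKO TAMs and 206 in ff TAMs. Its changes, -0.43 in sgWdr4-1 cells, 0.05 in sgWdr4-2 cells and 0.45 in cKO TAMs, were within 2-fold. Cenpe, a kinetochore motor, had footprints of 24.5 TPM in sgWdr4-1 cells, 14.5 in sgWdr4-2 cells and 16.9 in WT cells, and 9.56 TPM in cKO TAMs and 18.9 in ff TAMs. Cenpe input was 11.996 TPM in sgWdr4-1 cells, 11.5 in sgWdr4-2 cells and 11.8 in WT cells, and 15.3 TPM in cKO TAMs and 14.6 in ff TAMs. Cenpf, a large protein of the outer kinetochore, had footprints of 16.9 TPM in sgWdr4-1 cells, 10.99 in sgWdr4-2 cells and 14.9 in WT cells, and 6.59 TPM in cKO TAMs and 11.9 in ff TAMs. Cenpf input was 5.27 TPM in sgWdr4-1 cells, 5.10 in sgWdr4-2 cells and 5.71 in WT cells, and 7.46 TPM in cKO TAMs and 6.10 in ff TAMs. Both were footprint-rich in the lines, and their cKO changes in translation efficiency were -0.98 for Cenpe and -1.02 for Cenpf.

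Of the 5 spindle motor and microtubule genes, 4 were 2-fold higher in translation efficiency in sgWdr4-1 cells, against 14.8% of all genes. All 5 were above 0 there, against 50.5% of all genes. In cKO TAMs all 5 lay below 0, against 64.9% of all genes. Kif2c, a kinesin that depolymerises microtubule ends, had footprints of 62.8 TPM in sgWdr4-1 cells, 15.02 in sgWdr4-2 cells and 24.6 in WT cells, and 6.41 TPM in cKO TAMs and 31.6 in ff TAMs. Its input was 70.2 TPM in sgWdr4-1 cells, 65.5 in sgWdr4-2 cells and 64.0 in WT cells, and 65.9 TPM in cKO TAMs and 71.6 in ff TAMs. Kif2c had the largest decrease of translation efficiency in cKO TAMs among the 42 genes, and its changes were 1.19 in sgWdr4-1 cells, -0.71 in sgWdr4-2 cells and -2.02 in cKO TAMs. Tpx2, which activates Aurora A on the spindle, had footprints of 86.0 TPM in sgWdr4-1 cells, 18.8 in sgWdr4-2 cells and 21.1 in WT cells, over inputs of 156 TPM in sgWdr4-1 cells, 134 in sgWdr4-2 cells and 127 in WT cells. In TAMs Tpx2 had footprints of 12.9 TPM in cKO TAMs and 22.4 in ff TAMs, over inputs of 151 TPM in cKO TAMs and 134 in ff TAMs. Tpx2 changes were 1.68 in sgWdr4-1 cells, -0.23 in sgWdr4-2 cells and -0.92 in cKO TAMs, and the last did not reach 2-fold. Kif11, the motor that pushes spindle poles apart, had footprints of 62.6 TPM in sgWdr4-1 cells, 28.6 in sgWdr4-2 cells and 29.4 in WT cells, over inputs of 62.4 TPM in sgWdr4-1 cells, 68.6 in sgWdr4-2 cells and 72.7 in WT cells. Kif11 had footprints of 17.3 TPM in cKO TAMs and 22.2 in ff TAMs, over inputs of 74.8 TPM in cKO TAMs and 66.1 in ff TAMs. Hmmr, a spindle protein that helps TPX2 and Aurora A at the poles, had footprints of 20.8 TPM in sgWdr4-1 cells, 8.61 in sgWdr4-2 cells and 7.83 in WT cells, over inputs of 31.2 TPM in sgWdr4-1 cells, 35.2 in sgWdr4-2 cells and 36.0 in WT cells. Hmmr had footprints of 6.44 TPM in cKO TAMs and 9.88 in ff TAMs, over inputs of 33.6 TPM in cKO TAMs and 34.6 in ff TAMs. Kif11 and Hmmr were high in the sgWdr4-1 library and close together in the other 2 lines. Nusap1, a microtubule bundling protein, was the member within 2-fold throughout.

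Of the 5 central spindle and cytokinesis genes, 4 were at least 2-fold higher in translation efficiency in sgWdr4-1 cells, against 14.8% of all genes. All 5 lay below 0 in cKO TAMs, against 64.9% of all genes. Of these, 1 was 2-fold lower, against 16% of all genes. Anln, which encodes anillin, the scaffold of the contractile ring, had footprints of 117 TPM in sgWdr4-1 cells, 24.3 in sgWdr4-2 cells and 28.4 in WT cells, and 11.7 TPM in cKO TAMs and 33.1 in ff TAMs. Anln input was 175 TPM in sgWdr4-1 cells, 146 in sgWdr4-2 cells and 144 in WT cells, and 203 TPM in cKO TAMs and 139 in ff TAMs. Anln changes were 1.73 in sgWdr4-1 cells, -0.23 in sgWdr4-2 cells and -1.98 in cKO TAMs, and in TAMs its footprints were lower while its input was higher. Kif20a, a motor of the central spindle, had footprints of 123 TPM in sgWdr4-1 cells, 40.3 in sgWdr4-2 cells and 52.3 in WT cells, and 24.2 TPM in cKO TAMs and 40.0 in ff TAMs. Kif20a input was 158 TPM in sgWdr4-1 cells, 147 in sgWdr4-2 cells and 145 in WT cells, and 142 TPM in cKO TAMs and 154 in ff TAMs. Kif23, the motor subunit of centralspindlin, had footprints of 63.5 TPM in sgWdr4-1 cells, 12.6 in sgWdr4-2 cells and 21.5 in WT cells, over inputs of 79.1 TPM in sgWdr4-1 cells, 71.4 in sgWdr4-2 cells and 72.2 in WT cells. Kif23 had footprints of 8.21 TPM in cKO TAMs and 13.7 in ff TAMs, over inputs of 80.1 TPM in cKO TAMs and 64.0 in ff TAMs. Its changes were 1.39 in sgWdr4-1 cells, -0.72 in sgWdr4-2 cells and -0.99 in cKO TAMs. Prc1, which bundles midzone microtubules, had footprints of 170.3 TPM in sgWdr4-1 cells, 75.1 in sgWdr4-2 cells and 72.4 in WT cells, over inputs of 191 TPM in sgWdr4-1 cells, 157 in sgWdr4-2 cells and 171 in WT cells. Prc1 had footprints of 51.9 TPM in cKO TAMs and 61.9 in ff TAMs, over inputs of 192 TPM in cKO TAMs and 168 in ff TAMs. Ect2, the exchange factor that activates RhoA at the furrow, had footprints of 42.5 TPM in sgWdr4-1 cells, 36.5 in sgWdr4-2 cells and 31.1 in WT cells, over inputs of 106 TPM in sgWdr4-1 cells, 120.3 in sgWdr4-2 cells and 110.0 in WT cells. Ect2 had footprints of 25.0 TPM in cKO TAMs and 38.6 in ff TAMs, over inputs of 99.4 TPM in cKO TAMs and 119 in ff TAMs. Ect2 was the gene of this group within 2-fold in sgWdr4-1 cells, at 0.49.

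The 2 genes of mitotic chromosomes were both 2-fold lower in translation efficiency in cKO TAMs, against 16% of all genes. Top2a, the topoisomerase that untangles sister DNA, had footprints of 129 TPM in sgWdr4-1 cells, 48.2 in sgWdr4-2 cells and 53.4 in WT cells, over inputs of 165 TPM in sgWdr4-1 cells, 161 in sgWdr4-2 cells and 163 in WT cells. In TAMs Top2a had footprints of 25.9 TPM in cKO TAMs and 45.6 in ff TAMs, over inputs of 186 TPM in cKO TAMs and 155 in ff TAMs. Its changes were 1.24 in sgWdr4-1 cells, -0.13 in sgWdr4-2 cells and -1.06 in cKO TAMs, and the cKO change was -0.97 with a pseudocount of 5 and -0.76 after rescaling to the same median, short of 2-fold. Mki67, which encodes the chromosome-coating protein Ki-67, had footprints of 21.2 TPM in sgWdr4-1 cells, 12.1 in sgWdr4-2 cells and 26.9 in WT cells, over inputs of 25.0 TPM in sgWdr4-1 cells, 25.5 in sgWdr4-2 cells and 25.7 in WT cells. In TAMs Mki67 had footprints of 10.1 TPM in cKO TAMs and 20.5 in ff TAMs, over inputs of 33.3 TPM in cKO TAMs and 27.4 in ff TAMs. Its changes were -0.30 in sgWdr4-1 cells, -1.08 in sgWdr4-2 cells and -1.22 in cKO TAMs, so it was lower beyond 2-fold in sgWdr4-2 cells and cKO TAMs. With a pseudocount of 5 no gene of the 44 was 2-fold lower in sgWdr4-2 cells, so the calls of Mki67 and Pttg1 there were lost with it, and after rescaling Knl1 alone stayed past 2-fold, at -1.29.

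The iBMDM and TAM tables share no library, so changes in one can be set beside changes in the other. Of the 42 genes measured in both, 26 (61.9%) were above 0 in sgWdr4-1 cells and below 0 in cKO TAMs, against 32.6% of all 6927 genes. Kif2c, Anln and Top2a were at least 2-fold higher in sgWdr4-1 cells and 2-fold lower in cKO TAMs, which is 7.14% of the 42, against 2.17% of all genes. Knl1, Nsl1 and Mki67 were at least 2-fold lower in both sgWdr4-2 cells and cKO TAMs, also 7.14%, against 2.48% of all genes. Of these, Knl1 met the filter of 5 TPM mean footprints in TAMs only through ff TAMs, at 8.161 TPM against 2.335 in cKO TAMs. Its call as lower there therefore depends on the filter and adds little to this share. Across the 42 genes, the changes in sgWdr4-2 cells and in cKO TAMs had r = 0.75 and rho = 0.66. Without Mis12, a choice made after its values were seen, these were r = 0.64 and rho = 0.63 over 41 genes, and across all 6927 genes r = 0.49 and rho = 0.50. The changes in sgWdr4-1 cells and in cKO TAMs had r = 0.04 and rho = -0.05 across the 42 genes, and r = -0.02 and rho = -0.04 across all genes. These correlations run over genes that share the same libraries, and genes are not independent replicates.

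**Figure D4:**
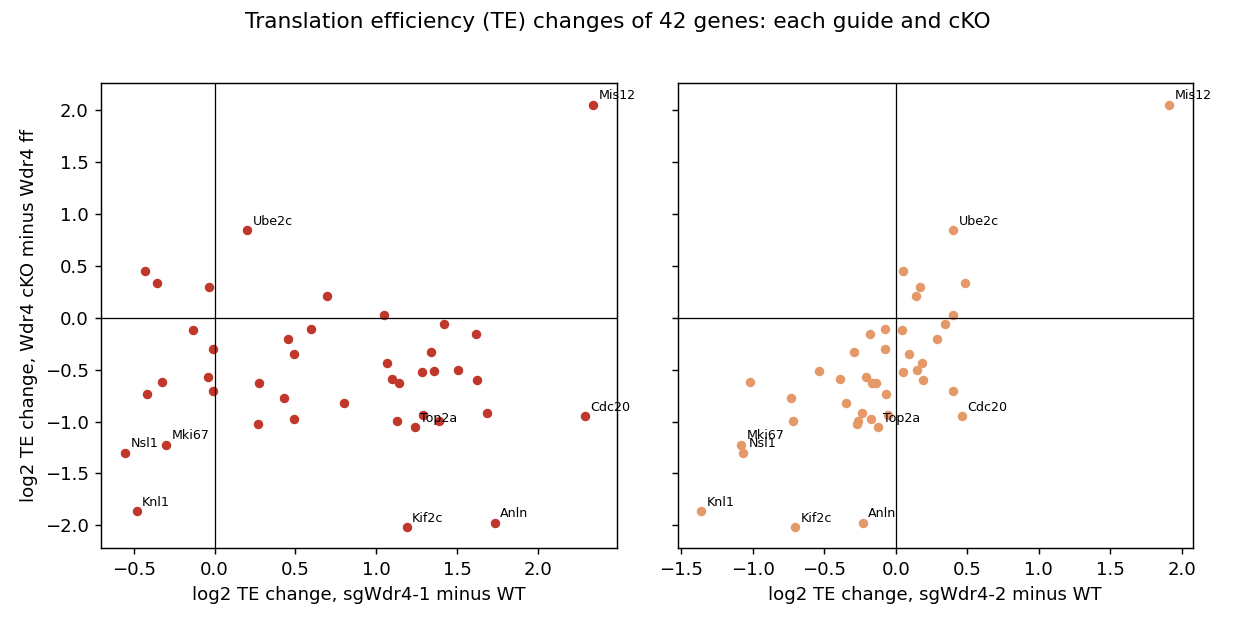
Change in translation efficiency in cKO TAMs minus ff TAMs (vertical axis, log2) against the change in sgWdr4-1 cells (left) and sgWdr4-2 cells (right) minus WT cells (horizontal axes, log2), with 1 point per gene for the 42 genes measured in both tables. Mis12 lies at the upper right in both panels, and the right panel slopes upward (r = 0.75) while the left does not (r = 0.04).

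The order of the genes by translation efficiency itself was close between the tables for some conditions. Spearman's rho over the 42 genes was 0.959 between sgWdr4-2 cells and cKO TAMs and 0.949 between WT cells and ff TAMs. It was 0.838 between sgWdr4-2 cells and ff TAMs and 0.799 between cKO TAMs and WT cells. It was 0.513 between sgWdr4-1 cells and cKO TAMs and 0.533 between sgWdr4-1 cells and ff TAMs. The sgWdr4-1 condition was the one in which the order departed. Its genes were also closer to each other, with an SD over the 44 genes of 0.675 in sgWdr4-1 cells, 1.00 in sgWdr4-2 cells and 1.02 in WT cells, while over all genes it was 1.19 in sgWdr4-1 cells, 1.19 in sgWdr4-2 cells and 1.20 in WT cells. Median translation efficiency of the 44 genes was -0.33 in sgWdr4-1 cells, -1.23 in sgWdr4-2 cells and -1.08 in WT cells, while for all genes it was -0.43 in sgWdr4-1 cells, -0.63 in sgWdr4-2 cells and -0.58 in WT cells.

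Apart from the labels, footprints and input can be compared within each table, relative to the median gene and with the line or genotype as the pair (limma, Benjamini-Hochberg adjustment, two-sided). The lines differ in label, so the spread holds label differences too, and the fits have 2 residual degrees of freedom for the lines and 1 for TAMs. The lengths behind the TPM of each kind are not given, and their part in differences between genes was not tested. In the lines 3 of 44 genes were called higher than the median gene in footprints over input and 13 (29.5%) lower, against 20.8% and 21.1% of all genes. In TAMs 1 of 42 was called higher and 21 (50%) lower, against 24.2% and 23% of all genes. Genes called lower in both tables numbered 12, which is 92.3% of the 13 and 57.1% of the 21. Over all 6927 genes measured in both tables, those called lower in both made up 79% of the calls in the lines and 68.3% of the calls in TAMs. The 12 were Plk1, Incenp, Cdca8, Bub1, Bub1b, Cdc20, Espl1, Tpx2, Hmmr, Kif23, Ect2 and Anln. Bub1b had the lowest values, at -1.87 (SE 0.35, adjusted p = 0.00115) on the log2 scale in the lines and -2.74 (SE 0.32, adjusted p = 6.11e-05) in TAMs. Ccna2 was the gene called in the lines alone, at -0.81 (SE 0.29, adjusted p = 0.0402), and Aurka, Ccnb1, Cdc25c, Kif11, Kif20a, Kif2c, Ndc80, Prc1 and Top2a were called in TAMs alone. The count of 13 rests on single lines, since it was 22 without sgWdr4-1, 5 without sgWdr4-2 and 4 without WT.

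Few of the genes were called higher than the median gene in footprints over input, and those called were kinetochore genes of the set. The call is relative to the median gene and does not mean that footprints exceeded input. Spc24 was called higher than the median gene in both tables, at 1.39 (SE 0.27, adjusted p = 0.0015) in the lines and 1.60 (SE 0.30, adjusted p = 0.001) in TAMs. Cenpf, at 1.79 (SE 0.30, adjusted p = 0.000512), and Cenpe, at 1.14 (SE 0.30, adjusted p = 0.00955), passed in the lines only, and Cenpe did not pass without sgWdr4-2. Of the 11 kinetochore genes, 10 lay above the median gene in the lines and 8 in TAMs, with medians of 0.59 and 0.41, and Ndc80 lay below it in both. Of these 11, 3 passed the test as higher in the lines, against 20.8% of all genes. In TAMs 1 passed as higher and Ndc80 as lower, against 24.2% and 23% of all genes. The separate list of centromere network and kinetochore genes did not lean the same way, with 12 of 27 above and 15 below the median gene in the lines (median -0.04) and 13 of 26 above and 13 below in TAMs (median -0.10). Central spindle and cytokinesis genes all lay below the median gene in both tables, with medians of -0.93 and -1.49. Plk1 and Aurka together had medians of -0.86 in the lines and -1.61 in TAMs, and spindle motors -0.64 and -1.24. Over all the mitotic genes measured the medians were -0.26 in the lines, with 18 genes above and 26 below, and -0.72 in TAMs, with 13 above and 29 below. No test between the groups was made.

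**Figure D5:**
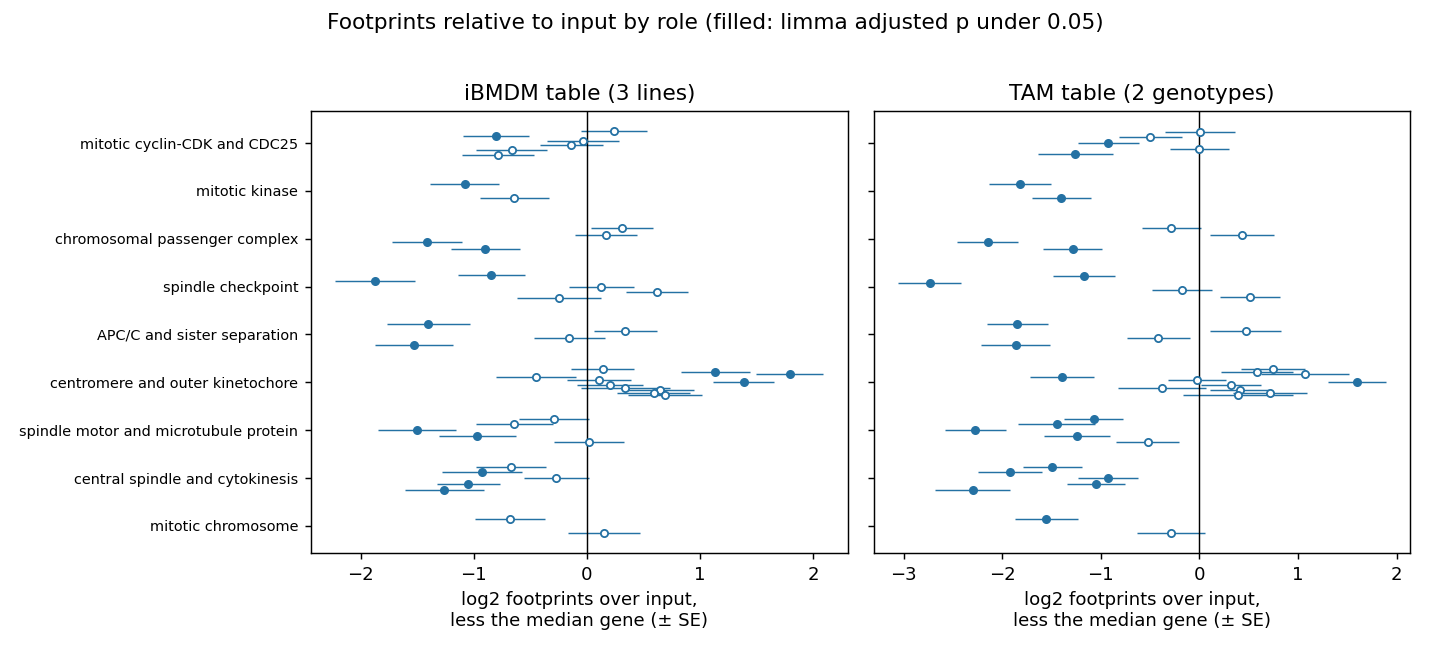
Footprints over input of each gene relative to the median gene (log2, ± SE from limma) in the iBMDM lines and in TAMs, with 1 point per gene grouped by role and filled points for an adjusted p under 0.05. Of the 11 kinetochore genes of the set, 10 lie right of 0 in the lines and 8 in TAMs, with 3 and 1 of them filled on that side, and all 5 cytokinesis genes lie left of it in both. Of all genes, 20.8% in the lines and 24.2% in TAMs were called higher.

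Other genes of cell division were counted from lists of condensin, cohesin, APC/C, centromere, centrosome and mitotic control genes, 106 in all. In sgWdr4-1 cells 18 of the 100 measured were 2-fold higher in translation efficiency and 14 were lower, with a median of 0.36. In sgWdr4-2 cells 2 were higher and 2 lower, with a median of -0.15, and in cKO TAMs none of 89 was higher and 14 were lower, with a median of -0.40. Cenpi, a centromere protein named after its values were seen, was the gene of these lists 2-fold lower under both guides, with footprints of 8.85 TPM in sgWdr4-1 cells, 7.45 in sgWdr4-2 cells and 17.3 in WT cells over inputs of 44.0 TPM in sgWdr4-1 cells, 38.0 in sgWdr4-2 cells and 37.8 in WT cells. DNA replication genes, which act in S phase, resembled the mitotic genes in sgWdr4-1 cells, where 17 of 38 were 2-fold higher and none was lower, with a median of 0.94. In sgWdr4-2 cells none of the 38 replication genes passed 2-fold, with a median of -0.03, and in cKO TAMs none of 37 was higher and 7 were lower, with a median of -0.45. These shares can be read against the same 14.8% and 13.7%, 3.53% and 4.87%, and 4.03% and 16% of all genes. No gene of these lists was 2-fold apart in the same direction in all 3 comparisons, against 0.245% of all genes higher and 1.10% lower. These shares are so small that the absence says little about the lists.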

How the data were processed

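Footprint and input libraries of 3 iBMDM lines and 2 TAM genotypes were analysed from 2 deposited tables of TPM values per gene, which the authors made after read trimming with fastp 0.18.0 and alignment with Bowtie2, per the submitters' processing notes. For the quantifier, genome build and annotation, nothing is stated (not given in the sources used here). The depth behind the TPM values is unknown, so no counting interval is given. Where a symbol had several entries, the one with the highest mean TPM was kept. Changes were differences of log2(TPM + 1) within a table, and genes were counted when mean input and mean footprints each reached 5 TPM, with 2-fold as the size rule. Tests were fitted over all such genes with limma 3.58.1 in R 4.3.3 (empirical Bayes with trend, adjusted p under 0.05) and were checked on simulated data. Other steps used pandas 2.3.3 and numpy 2.4.6 in Python 3.11.15, with plots by matplotlib 3.10.9. The mitotic genes and lists were chosen with earlier results of these data known. Values in every library were given by rule for genes 2-fold changed under both guides, the 4 highest and 4 lowest past 2-fold in cKO, those past limma, and the gene of highest mean input in each role. Others, such as Pttg1, Mki67, Cdkn1a and Cenpi, were named after their values were seen. Alternatives were other pseudocounts (0.1 and 5), filters (1, 20 or none), rescaling, gene classes left out, limma without trend or centring, and each line left out.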

Additional observations from a re-analysis of the deposited data

Results flagged for a closer look

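In all, 3 genes stood out because sgWdr4-1 cells exceeded WT cells by 2-fold or more in translation efficiency while the same measure was at least 2-fold lower in cKO TAMs than in ff TAMs. They made up 7.14% of the 42 genes measured in both tables, against 2.17% of all genes. The gap between the sgWdr4-1 and cKO changes was 3.71 on the log2 scale for Anln, 3.21 for Kif2c and 2.29 for Top2a. In sgWdr4-2 cells, the other targeted line, the 3 changes lay between those values and within 2-fold of WT cells. Each change sets a condition with 1 footprint and 1 input library against a control with 1 of each, so the difference was not tested.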

How the results depend on the processing

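Mis12 kept its direction and stayed past 2-fold in translation efficiency and footprints in sgWdr4-1 cells, sgWdr4-2 cells and cKO TAMs under every pseudocount, filter and rescaling tried, and no result reversed. With a filter of 20 TPM, which tests fewer genes, the median change in translation efficiency was 1.06 in sgWdr4-1 cells and -0.31 in cKO TAMs, where it was also -0.31 after rescaling libraries to the same median. The number of genes 2-fold higher in translation efficiency in cKO TAMs was 2 after rescaling and with genes encoded in mitochondria, ribosomal protein genes and histone genes left out. The number lower was 4 with a pseudocount of 5, 2 with the filter of 20 and 4 after rescaling, and the number lower in footprints was 8 with a pseudocount of 0.1, 2 with 5, and 3 with the filter of 20, after rescaling or with those gene classes left out. The count higher under both guides was between 1 and 21 with either line left out, in translation efficiency and in footprints, and the count lower was between 0 and 4 in translation efficiency and between 0 and 2 in footprints. For footprints against input in the lines, the count higher was 1 with the filter of 20, and the count lower was 22 without centring and between 4 and 22 with 1 line left out. In TAMs the count higher was 2 without trend, with a pseudocount of 5 or with a filter of 1, and the count lower was 11 with the filter of 20. Apart from these, the cause of a move was not tested. Between conditions, no paired analysis was possible because the labels give no shared replicate number and each condition has 1 library of each kind. The single library per condition and the unknown depth limit every value.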

Other observations

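Of 17 measured G1 cyclins, CDKs and CDK inhibitors, none was 2-fold higher and 2 were 2-fold lower in translation efficiency in sgWdr4-1 cells, against 14.8% and 13.7% of all genes. In sgWdr4-2 cells none was higher and 1 lower, against 3.53% and 4.87%, and in cKO TAMs 1 was higher and 1 lower, against 4.03% and 16%. Cdkn1a, which encodes the CDK inhibitor p21, was picked out after its values were seen. Its footprints were 108 TPM in sgWdr4-1 cells, 10.3 in sgWdr4-2 cells and 56.9 in WT cells, over inputs of 21.8 TPM in sgWdr4-1 cells, 7.64 in sgWdr4-2 cells and 7.89 in WT cells. In TAMs Cdkn1a had 8.36 footprint TPM in cKO TAMs and 58.9 in ff TAMs, over inputs of 35.7 TPM in cKO TAMs and 7.62 in ff TAMs. Its translation efficiency differed by -0.44 in sgWdr4-1 cells, -2.32 in sgWdr4-2 cells and -4.77 in cKO TAMs, so footprints and input ran in opposite directions in the cKO TAMs.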
